A study of Mus musculus with 2 samples.

Results

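The genes described here are the ligands of the epidermal growth factor receptor (Tgfa, Hbegf, Areg, Ereg, Btc, Epgn and Egf) and the ErbB receptors Egfr, Erbb2 and Erbb3, 10 genes chosen by name and found through the platform's gene symbols. Of these, 9 had a row of their own among the 30698 genes with such a row, and all 9 lay above the low-signal level in both arrays. Areg was not analysed here. Total RNA was measured on 1 microarray of injured and 1 microarray of uninjured corneal epithelium from C57BL/6 mice of both sexes at an age of 8 weeks, all anaesthetised with ketamine and xylazine. In the injured eyes the epithelium had been taken off to its full depth up to the limbal border with a 0.5 mm rust ring remover, and the whole epithelium was collected about 48 hours later, when 10% of the wound was still open. The uninjured epithelium came from the fellow eyes, so it belongs to animals that were wounded in the other eye, and how many animals each array pools is not stated in the labels.

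Ligands of this family are made as membrane-anchored precursors that metalloproteases release from the cell surface. A released ligand binds Egfr, which then pairs with another Egfr or with Erbb2, a receptor with no known ligand of its own, and the pair signals through the Ras-ERK and PI3K-Akt routes. Erbb3 has little kinase activity, is bound by neuregulins and acts through its partner, most often Erbb2. In the corneal epithelium, release of Hbegf and signalling by Egfr are known to drive the migration and division of cells that close a wound.

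The comparison asks how far this ligand and receptor set differed between epithelium that was closing a wound and intact epithelium. The ligands went both ways and the receptors went 1 way: Epgn, Tgfa and Ereg were higher in the injured array, Hbegf, Btc and Egf were lower, and all 3 receptors were lower. None of the 9 was 2-fold apart, that is by 1 or more on the log2 scale, where 8.06% of the 19512 genes measured were (4.14% higher and 3.92% lower in injured). At 1.5-fold, 4 of the 9 stood apart, with Epgn higher and Hbegf, Erbb3 and Erbb2 lower, against 19.9% of all genes measured (11.1% higher and 8.76% lower). In direction alone 3 of the 9 were higher and 6 lower, against 58.4% higher and 40.8% lower over all genes measured. A single array per group carries no error between animals, so the differences are descriptions of these 2 arrays without a test or a p-value. In bulk tissue, fewer cells of a type and less RNA per cell cannot be told apart.

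**Figure D1:**
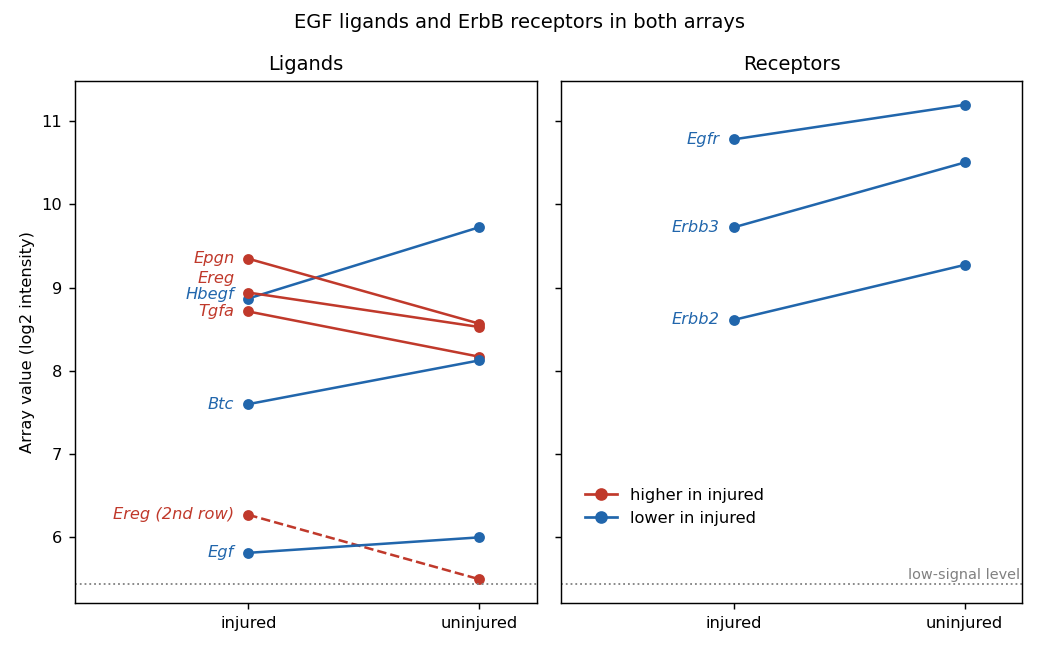
Array values (log2 intensity, vertical axis) of each member in the injured and the uninjured array, ligands on the left and receptors on the right, 1 line per row of the table, dashed for the second Ereg row and dotted grey for the low-signal level of 5.44. Epgn, Ereg and Tgfa slope down towards uninjured and the other genes slope up. The height of 1 gene's line cannot be set against that of another, since each is read by its own probes.

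Epgn, which encodes epigen, a ligand of stratified epithelia with low affinity for its receptor, had a log2 value of 9.35 in injured and 8.57 in uninjured epithelium. The difference of 0.78 made it 1.72-fold higher, the furthest upward of the members, and 93.0% of genes measured had a lower difference. Tgfa, encoding transforming growth factor alpha, a main ligand that epithelial cells make for themselves, had 8.71 in injured and 8.17 in uninjured epithelium. It was higher by 0.54, or 1.46-fold, with 87.7% of genes measured below it. Both therefore lay in the upper part of the distribution of all genes without reaching the 2-fold line.

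Ereg encodes epiregulin, a ligand of Egfr and of Erbb4 that is induced in inflamed and wounded epithelia, and it was read by 2 rows. The row that stood for the gene, the brighter of the pair, had 8.94 in injured and 8.53 in uninjured epithelium and was higher by 0.41, or 1.33-fold. The other row had 6.27 in injured and 5.50 in uninjured epithelium and was higher by 0.77. The rows shared their direction and differed in size by 0.36. The SD between rows of 1 gene was 0.24 over the 256 genes with several rows above the low-signal level. It is taken about the mean of each gene, so a gap between 2 rows spreads more widely than this SD. The dimmer row lay only 0.06 above the low-signal level of 5.44 in uninjured epithelium, so the size of its difference is uncertain. In the order of the row identifiers, the 20 nearest rows whose gene has a strand in the RefSeq promoter table were all of the plus strand around the brighter row and all of the minus strand around the dimmer row. Whether the pair reads opposite strands of the locus was not tested.

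Hbegf, encoding the heparin-binding ligand, went the other way. It had 8.87 in injured and 9.72 in uninjured epithelium and was lower by 0.86 on the log2 scale, or 1.81-fold, the furthest from 0 of all members in either direction. Of all genes measured, 10.9% differed by a larger amount. Btc, encoding betacellulin, which binds Egfr and Erbb4, had 7.60 in injured and 8.12 in uninjured epithelium, a difference of -0.53 (1.44-fold lower), and 9.85% of genes measured lay below it. These ligands thus differed in the opposite direction to Epgn, Tgfa and Ereg, and the change of Epgn relative to Hbegf came to 1.64 on the log2 scale.

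Egf, the founding member of the family, is made mainly in kidney and glands and reaches the cornea with the tears. It had 5.81 in injured and 6.00 in uninjured epithelium, only 0.38 above the low-signal level in the dimmer array. Its difference of -0.19 was the smallest of the members and the only 1 of the 9 below the SD of 0.24 between rows of a gene. That SD measures disagreement between probes within these arrays and holds no spread between animals. The other 8 members differed by more than this SD. Over all genes measured the median size of a difference was 0.22, close to this SD, so passing it does not set a gene apart.

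The receptors were all lower in the injured array. Erbb3 had 9.72 in injured and 10.50 in uninjured epithelium, a difference of -0.78 or 1.72-fold, with 5.80% of genes measured below it. Erbb2 had 8.61 in injured and 9.27 in uninjured epithelium, a difference of -0.66 or 1.58-fold, with 7.51% below it. Egfr, the receptor that all 7 ligands bind, had 10.78 in injured and 11.20 in uninjured epithelium, a difference of -0.42 or 1.33-fold, with 12.6% below it. The order of the differences was Erbb3, Erbb2, Egfr. Erbb3 and Erbb2 lay 0.12 apart, and Erbb2 and Egfr 0.25 apart. The SD of 0.24 between rows of a gene is taken about the mean of each gene. A gap between 2 values spreads more widely than that, so neither gap settles the order. The median difference was -0.66 over the 3 receptors and 0.11 over the 6 ligands measured, while over all genes measured it was 0.06. The ratio of Epgn to Erbb3, the ligand and receptor whose differences lay furthest apart, was 2.95-fold higher in the injured than in the uninjured array. The differences of Hbegf and Erbb3, by contrast, lay only 0.08 apart. Erbb3 is bound by neuregulins, so neither pair sets a ligand against its own receptor.

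**Figure D2:**
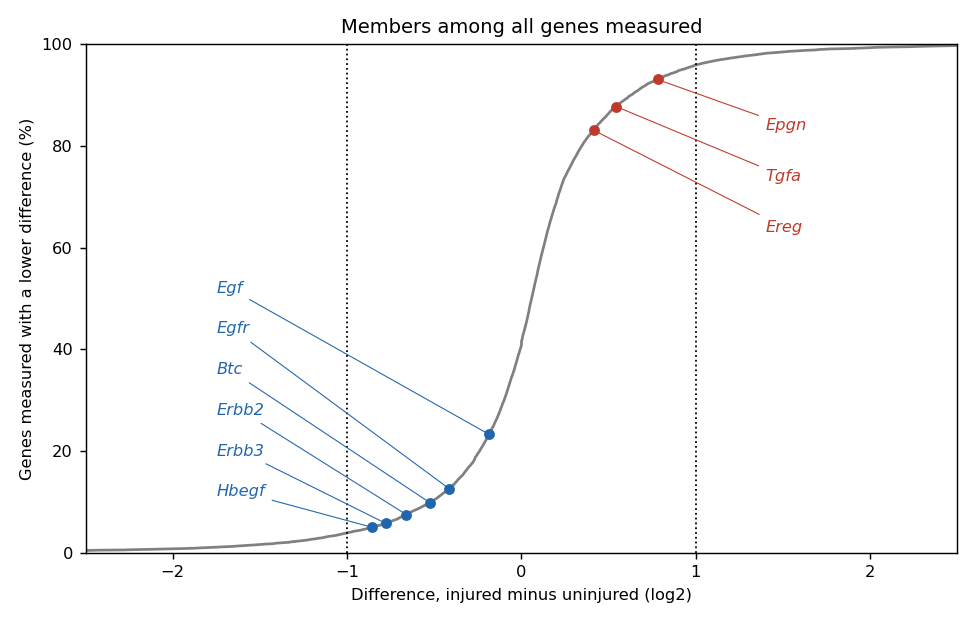
Percent of the 19512 genes measured with a lower difference (vertical axis) at each log2 difference, injured minus uninjured (horizontal axis, grey curve), with the members as points and dotted lines at 2-fold. Hbegf, Erbb3, Erbb2, Btc, Egfr and Egf lie on the left of 0 and Ereg, Tgfa and Epgn on the right, all inside the 2-fold lines.

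The 250 bases before the transcription start are shown for the ligands furthest upward and for both receptors that have an entry in the RefSeq promoter table of GRCm38.p6, to set the pair that was higher beside a pair that was lower. In all, 7 of the 10 members had an entry. Capitals mark matches to 5 core promoter or factor motifs. The TATA box was searched as TATAAA on the strand of the gene only. On both strands, the GC box was searched as GGGCGG, the NF-Y motif as CCAAT, the AP-1 site as TGANTCA and the E-box as CACGTG. No matches overlap in these windows.
Epgn, chr5:91027267-91027516 (+ strand): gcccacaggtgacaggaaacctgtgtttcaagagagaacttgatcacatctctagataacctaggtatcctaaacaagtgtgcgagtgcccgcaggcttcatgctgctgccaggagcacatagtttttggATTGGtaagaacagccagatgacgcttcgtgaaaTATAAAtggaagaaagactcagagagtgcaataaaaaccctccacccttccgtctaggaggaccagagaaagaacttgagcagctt
Tgfa, chr6:86194972-86195221 (+ strand): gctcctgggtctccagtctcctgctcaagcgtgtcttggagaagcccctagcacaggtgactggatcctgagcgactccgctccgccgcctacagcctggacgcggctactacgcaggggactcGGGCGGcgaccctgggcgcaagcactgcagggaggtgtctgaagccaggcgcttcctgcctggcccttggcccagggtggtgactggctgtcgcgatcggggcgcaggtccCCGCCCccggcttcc
Erbb2, chr11:98412234-98412483 (+ strand): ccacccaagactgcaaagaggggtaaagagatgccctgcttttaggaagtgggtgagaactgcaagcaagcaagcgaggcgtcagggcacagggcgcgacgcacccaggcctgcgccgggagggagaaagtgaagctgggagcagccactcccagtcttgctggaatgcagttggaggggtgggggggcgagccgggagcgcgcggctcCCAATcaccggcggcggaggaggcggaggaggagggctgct
Egfr, chr11:16751953-16752202 (+ strand): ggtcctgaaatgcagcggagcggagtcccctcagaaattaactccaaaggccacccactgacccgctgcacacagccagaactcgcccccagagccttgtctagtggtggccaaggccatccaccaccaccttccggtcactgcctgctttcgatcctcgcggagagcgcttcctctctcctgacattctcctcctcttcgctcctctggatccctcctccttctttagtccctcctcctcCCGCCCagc
The window of Epgn holds a TATAAA match that begins 86 bases before the start and an NF-Y motif that begins 120 bases before it. Its GC content is 46.8%. That of Tgfa holds GC boxes that begin 126 and 15 bases before the start, with a GC content of 69.2%. The Erbb2 window holds an NF-Y motif that begins 41 bases before the start (GC content 66.0%), and the Egfr window a GC box that begins 9 bases before it (GC content 60.8%). Among 32851 windows of this length in the table, 7.59% hold TATAAA at any position and 32.7% the GC box. The NF-Y motif is held by 33.8%, the AP-1 site by 6.75% and the E-box by 6.02%, and the median GC content is 52.4%. None of the 4 windows holds the letters searched for the AP-1 site or the E-box. Of these windows that of Epgn alone holds TATAAA and lies below the median GC content, while those of Tgfa, Erbb2 and Egfr lie above it. All marked stretches are matches of letters wherever they lie in the window. Whether any is a working site, the TATAAA of Epgn included, was not tested.

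Epgn, Ereg, Areg and Btc lie next to each other on chromosome 5 in RefSeq, with a group of chemokine genes on 1 side. Along this stretch the differences were unequal between neighbours. Mthfd2l, the gene between the chemokines and Epgn, which encodes a mitochondrial enzyme of folate metabolism, had 8.20 in injured and 8.02 in uninjured epithelium, and Parm1, beyond Btc, had 9.29 in injured and 9.41 in uninjured epithelium. The chemokine genes nearest to the ligands were higher by 1.45 (Cxcl2) and 1.39 (Cxcl1). Of the ligands themselves Epgn and Ereg were higher and Btc, the outermost, was lower. The neighbours were chosen by position, with their values known.

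**Figure D3:**
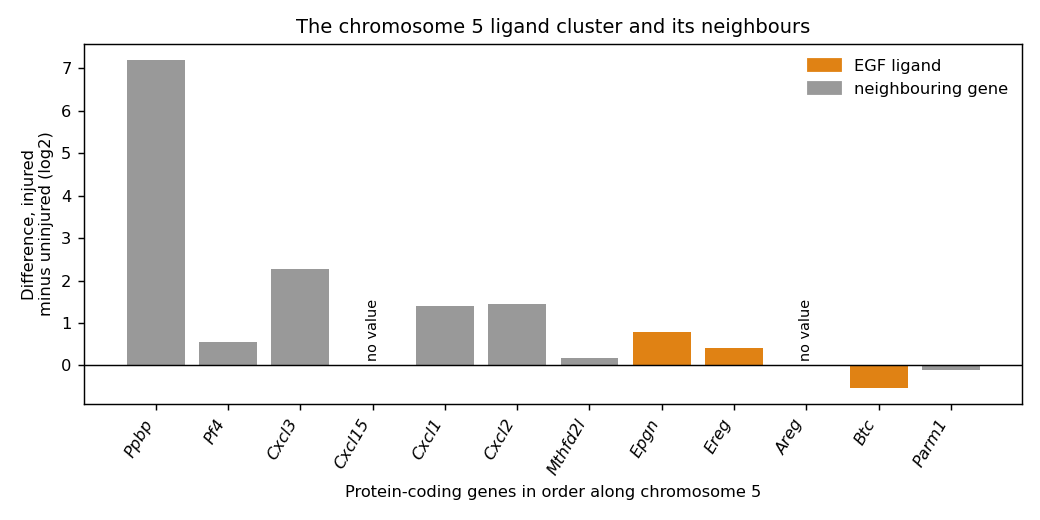
Log2 difference, injured minus uninjured (vertical axis), of protein-coding genes in their order along chromosome 5 (horizontal axis), EGF ligands in orange and neighbouring genes in grey; Cxcl15, below the low-signal level, and Areg have no value. The difference is 7.19 for Ppbp, 0.17 for Mthfd2l, 0.78 for Epgn, 0.41 for Ereg and -0.53 for Btc.

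The rest of the pathway was described through 7 lists with 99 genes, chosen by role with earlier results of these data known. Of these genes 90 were measured, 3 lay below the low-signal level and 6 were not analysed here. Past 2-fold were 9 of them upward and 5 downward in the injured array, against 4.14% and 3.92% of all genes measured. The same shares stand beside the count of each list below. The median difference over the 90 was -0.10, against 0.06 over all genes measured. Neuregulins are the ligands of Erbb3 and Erbb4. Nrg1 had 9.46 in injured and 9.07 in uninjured epithelium, whereas Nrg2 had 7.75 in injured and 8.31 in uninjured epithelium, so this pair was split like the Egfr ligands. The receptor gene Erbb4, with 4.63 in injured and 4.74 in uninjured epithelium, lay below the low-signal level in both arrays, as did Nrg3 and Nrg4.

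Among 11 measured genes of ligand shedding, Adam8, a metalloprotease also known from leukocytes, was the only 1 at least 2-fold apart, with 9.55 in injured and 6.22 in uninjured epithelium (3.33 higher). Of the main sheddases Adam17, which releases Tgfa, Hbegf, Areg and Ereg, was nearly level, with 9.01 in injured and 9.03 in uninjured epithelium. Adam10, which releases Egf and Btc, had 10.30 in injured and 9.94 in uninjured epithelium (0.35 higher). Rhbdf2, which carries Adam17 to the cell surface, differed by 0.13 and Rhbdf1 by -0.32. At 1.5-fold, 2 of the 11 were lower, Adam15 (-0.88) and Timp3 (-0.78), and 1 was higher. Over all genes measured, 8.76% were lower and 11.1% higher at that threshold. The median of the shedding list was -0.01. The 6 cofactors that hold ligands at the surface or associate with the receptors had a median of -0.41. Gpc1, a glypican, was nearly level at -0.01, and Cd82, a tetraspanin that restrains Egfr signalling, was the only 1 past 2-fold, with 7.89 in injured and 9.31 in uninjured epithelium. Cd9, the tetraspanin partner of the Hbegf precursor, differed by -0.28, and the heparan sulphate proteoglycan genes Sdc1 and Sdc4 by -0.54 and -0.77.

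Genes listed for restraint or degradation of the receptors were mixed. Of 16, 2 passed 2-fold upward and 1 downward, against 4.14% and 3.92% of all genes measured, and the median was -0.19. Lrig1, a membrane protein that promotes loss of ErbB receptors from the cell surface, had 8.49 in injured and 10.28 in uninjured epithelium, a difference of -1.79. Socs5, which promotes Egfr degradation, had 7.53 in injured and 6.48 in uninjured epithelium, and Ubash3b, a phosphatase that acts on internalised receptors, had 7.02 in injured and 5.96 in uninjured epithelium. Both lay just past 2-fold and fell short of it, at 0.95 and 0.91, with a constant added on the linear scale. The feedback inhibitor Errfi1, which binds the Egfr kinase domain, differed by -0.63 and the ubiquitin ligase gene Cbl by -0.19. Genes of this list thus lay on both sides of 0, and whether each restrains the receptors in this epithelium was not tested.

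Of 24 measured adaptor and kinase genes none was 2-fold higher and 2 were 2-fold lower, with a median of -0.16. Over all genes measured, 4.14% were higher and 3.92% lower by that much. Grb7, an adaptor that binds Erbb2 and Erbb3, had 8.19 in injured and 9.54 in uninjured epithelium, and Braf, a kinase between Ras and ERK, had 8.38 in injured and 9.59 in uninjured epithelium. Among 13 genes of receptor endocytosis and sorting Dab2, a clathrin adaptor, stood alone with 7.51 in injured and 5.03 in uninjured epithelium, and its uninjured value lies below the low-signal level, so the size of that difference is uncertain. The other 12 were less than 2-fold apart, with a median of -0.11 over the list.

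Transcripts known to be induced by ERK went both ways. Of 18, 5 passed 2-fold upward and 1 downward, against 4.14% and 3.92% of all genes measured, and the median was 0.07. Higher were Ptgs2, a prostaglandin synthase (4.71), Plaur, the urokinase receptor (1.97), the ERK phosphatase Dusp4 (1.13), and the transcription factors Fosl1 (1.09) and Myc (1.04). With the added constant Dusp4 (0.98) and Fosl1 (just under 1) no longer passed. Ptgs2 had an uninjured value of 5.29, below the low-signal level, so its size is uncertain. Lower was Fos, with 7.75 in injured and 9.75 in uninjured epithelium. The feedback genes Dusp6, with 8.78 in injured and 8.91 in uninjured epithelium, and Spry2, with 7.65 in injured and 7.84 in uninjured epithelium, differed by less than the SD between rows of a gene. Other feedback genes of the list were further apart, Spry1 at -0.84, Spred1 at -0.71 and Dusp5 at -0.70.

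**Figure D4:**
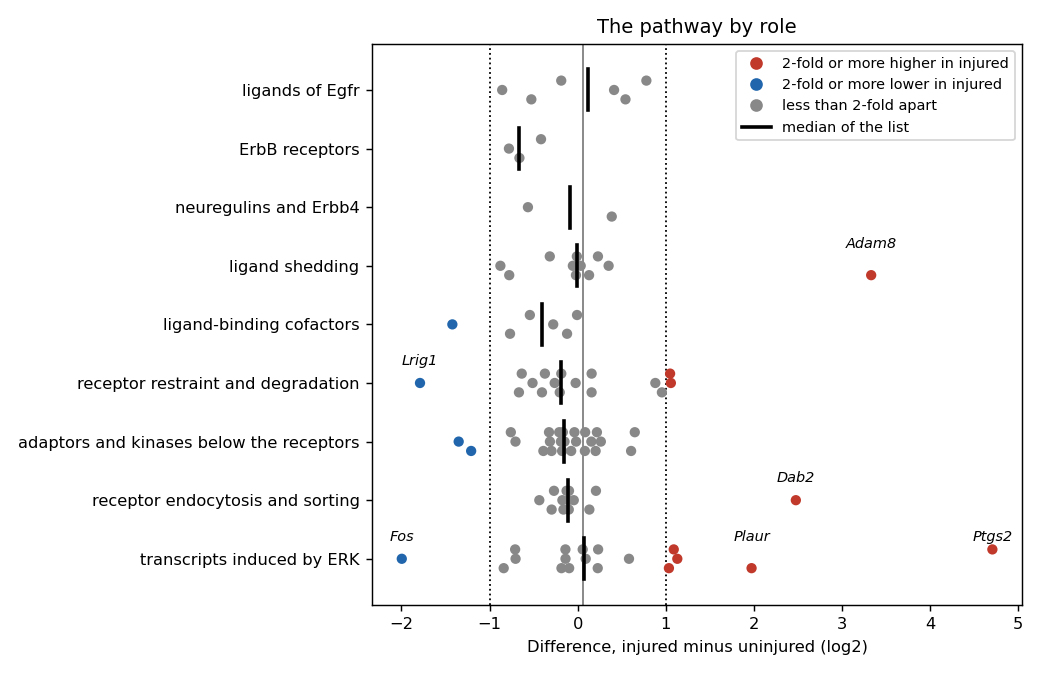
Log2 difference, injured minus uninjured (horizontal axis), of each measured gene, in rows by role; the black bar is the median of a list, the grey line the median of all genes measured (0.06) and the dotted lines mark 2-fold. The 3 receptors lie left of 0 with a median of -0.66, and the genes furthest out are Ptgs2 (4.71), Adam8 (3.33) and Dab2 (2.48) on the right and Fos (-2.00) and Lrig1 (-1.79) on the left.

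Both arrays carried the markers of corneal epithelium, whose levels differed between them. Krt12, the keratin of differentiated corneal epithelium, had 10.85 in injured and 14.07 in uninjured epithelium, and Pax6 had 9.31 in injured and 10.63 in uninjured epithelium. Among 9 measured markers of this tissue, 4 passed 2-fold downward (Krt12, Aldh3a1, Pax6 and Klf4) and 1 upward, the basal keratin Krt14 (2.23 higher). Over all genes measured, 3.92% passed downward and 4.14% upward. The summed intensity of the markers on the linear scale was 35186 in injured and 57193 in uninjured epithelium. Among 9 measured proliferation genes, 8 passed 2-fold upward, against 4.14% of all genes measured. Their sum was 9550 in injured and 3062 in uninjured epithelium. Krt5, a keratin of basal epithelial cells, was nearly level at -0.16. The corneal markers thus went both ways, and the part of cell composition in the members' differences was not tested. Of 8 measured markers of conjunctiva and goblet cells, 2 passed 2-fold upward, Krt7 (1.34) and Krt19 (1.11), and 1 downward, Muc5ac (-1.26). Their sum was 12755.5 in injured and 10539.3 in uninjured epithelium, and the part of conjunctival cells in either array was not tested. Erbb3 also marks Schwann cells and melanocytes. Of 6 measured Schwann cell and nerve markers 1 was at least 2-fold apart, Tubb3 (1.64 higher). The sum was 1171 in injured and 978 in uninjured epithelium, or 856 in injured and 877 in uninjured epithelium without Tubb3, and Sox10 had 6.87 in injured and 6.71 in uninjured epithelium. Of 4 measured melanocyte markers none was 2-fold apart, with a sum of 242 in injured and 231 in uninjured epithelium, and the part of these cells in the value of Erbb3 was not tested. Adam8 is also expressed by neutrophils, whose markers (7 of 10 measured) had a sum of 543 in injured and 364 in uninjured epithelium. Of the 7, S100a9 was the only 1 past 2-fold (1.89 higher) and carries much of the difference between the sums. The median difference of the 7 was 0.14, and the part of neutrophils in the value of Adam8 was not tested. Macrophage and dendritic cell markers, 8 measured, had a sum of 1383 in injured and 2013 in uninjured epithelium, but this direction comes from the integrin gene Itgam, which was lower by 1.55 on the log2 scale. Of the 8, 6 were higher and the median difference was 0.19, and without Itgam the sum was 962 in injured and 785 in uninjured epithelium. Adgre1, the defining macrophage marker, lay below the low-signal level in both arrays (4.58 in injured and 4.50 in uninjured epithelium).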

How the data were processed

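RNA of 2 samples was measured, 1 array each. The deposited table holds 65952 rows with log2 intensities between 2.54 and 14.1. Agilent Feature Extraction 9.1 is the tool named, per the submitters' processing notes, although the identifiers look like the transcript clusters of another maker's arrays, so what an intensity summarises is not settled. The log base was read from the range of the values, and the sources used here state neither the background correction nor the normalization or genome build. The columns' medians differed by 0.0135, less than the limit of 0.1 set for a normalized table, so values were kept as deposited. No detection or saturation call was used, and the number of arrays limits the precision.

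Rows took the platform's gene symbols, updated through the RefSeq genes of GRCm38.p6: 31254 rows carried 1 gene, 1492 several and 33206 are unnamed here. A gene was measured when its brighter value reached 5.44, the median of the table, and the row with the highest mean stood for it. Calls are by size (2-fold), computed with pandas 2.3.3 and numpy 2.4.6. The code was run on simulated data with planted differences and noise well below the SD between rows of a gene. That run checks the computation and not how reliable the calls in these arrays are. The members and lists were chosen with earlier results of these data known. Named were all members, then from each pathway list those 2-fold apart or, with none, the 2 furthest from 0; from the marker lists, members 2-fold apart beside a result and Krt12, Pax6, Sox10 and Adgre1. Adam17, Adam10, Adam15, Timp3, Rhbdf1, Rhbdf2, Cd9, Sdc1, Sdc4, Gpc1, Errfi1, Cbl, Erbb4, Nrg3, Nrg4, Dusp6, Spry2, Spry1, Spred1, Dusp5, Krt5, Kit, Cpa3, Mcpt4 and all neighbouring genes lie outside that rule and were chosen after their values were seen. No gene was named for a pattern like a member's, since 2 arrays give 1 difference. Alternatives were other scalings between arrays, addition of 13.9 to each linear intensity, other filters, rows and thresholds.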

Additional observations from a re-analysis of the deposited data

How the results depend on the processing

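No paired analysis was possible because each group has 1 array. Of 116 recomputed values 109 stayed on the same side and within the SD of 0.24 between rows of a gene, or within 1.5 times for counts. Many of these could hardly move. Every member but Ereg had 1 row, so the choice of row changed nothing for it. The columns' medians differed by only 0.0135, and a count of 0 at 2-fold stays 0 at 4-fold. Under equal medians, equal 75th percentiles, quantile normalization, loess, an added constant and other choices of row, every member kept its direction: Epgn lay between 0.76 and 0.78, Tgfa between 0.52 and 0.54, Hbegf between -0.87 and -0.84, Btc between -0.54 and -0.50, Egf between -0.23 and -0.15, Egfr between -0.50 and -0.40, Erbb2 between -0.68 and -0.64 and Erbb3 between -0.82 and -0.77. Ereg lay between 0.40 and 0.77, with 0.77 when the row with the largest difference stood for it. With a threshold of 1.5-fold, 1 member was higher and 3 were lower, against 0 and 0 at 2-fold. Of the pathway genes, 9 were 2-fold higher as reported, 5 with the added constant, which compresses low values (Socs5, Ubash3b, Dusp4 and Fosl1 were lost), and 3 at 4-fold. At least 2-fold lower were 5, against 15 at 1.5-fold and 0 at 4-fold. Over all genes measured, 3.92% were lower at 2-fold and 8.76% at 1.5-fold. Chosen after seeing the data, leaving out Tubb3 turned the ratio of summed Schwann cell markers, injured over uninjured, to 0.976 from 1.20, and leaving out Itgam that of macrophage markers to 1.23 from 0.687. Values near the low-signal level (Egf, the dimmer Ereg row, Dab2 and Ptgs2 in uninjured epithelium) limit the size of a difference, and no alternative supplies the missing spread between animals.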

Other observations

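Genes next to Erbb2 and Erbb3 on the chromosome were chosen after their values were seen. Those around Erbb2 went both ways. Grb7, Mien1, Pgap3 and Ikzf3 (-0.70) were lower, as Erbb2 was, whereas Pnmt (0.18) and Tcap (0.16) were higher. Grb7, which lies beside Erbb2 on chromosome 11 with Mien1 between them, was lower by 1.35 on the log2 scale, while Mien1 had 9.41 in injured and 9.72 in uninjured epithelium. On the other side of Erbb2, Pgap3 had 6.66 in injured and 6.91 in uninjured epithelium. Pa2g4, a neighbour of Erbb3 on chromosome 10, encodes a protein that binds Erbb3 and takes part in growth control and ribosome assembly. It had 11.74 in injured and 10.62 in uninjured epithelium, 1.11 higher, opposite to Erbb3 itself. Rps26, on the other side of Erbb3, was nearly level at 0.03. Further out, Rpl41 differed by 0.52, Zc3h10 by 0.09, Ikzf4 by -0.01 and Suox by -0.0005. Kit, another receptor tyrosine kinase, had 8.01 in injured and 10.38 in uninjured epithelium, a difference of -2.38, further from 0 than any ErbB receptor. Mast cell genes listed beside it, Cpa3 (3.96 in injured and 4.20 in uninjured epithelium) and Mcpt4 (4.35 in injured and 4.27 in uninjured epithelium), lay below the low-signal level in both arrays.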
